A study of Danio rerio with 4 samples.

Results

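The genes described here supply the early embryo with packaged DNA. They encode the machinery that makes histone messenger RNA and the chaperones that carry new histones to DNA. Members were found by exact gene name in the expression table, with the names chosen when earlier results of these data were known, and 10 names were looked for: *slbp*, *slbp2*, *npat*, *lsm10*, *lsm11*, *chaf1a*, *chaf1b*, *asf1ba*, *asf1bb* and *nasp*. The table of 32468 genes holds 9 of these names in 10 rows, as *asf1ba* stands in 2 rows and *slbp2* in none. RNA was measured in whole zebrafish embryos at sphere stage, a mid-blastula stage soon after the zygotic genome becomes active. The groups were MZ*eomesa* embryos, which carry the *fh105* allele of *eomesa* and lack the maternal and the zygotic product, and wild-type embryos. Both are labelled as AB strain with no treatment, and each group has 2 samples made from poly(A) RNA. The mutants came from *in vitro* fertilization of gametes of homozygous mutant parents. In some experiments of the study, embryos lacking only maternal *eomesa* took their place, and neither the labels nor the methods name such a substitution for the RNA samples.

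Most messenger RNAs end in a poly(A) tail, but those of replication-dependent histones end in a short stem-loop. Stem-loop binding protein (Slbp) holds this structure, the U7 particle cuts the transcript just behind it, and Npat switches on transcription of histone gene clusters in S phase. New histones H3 and H4 are bound by Nasp and Asf1, and chromatin assembly factor 1 places them on freshly copied DNA. In fast-dividing cleavage and blastula embryos much of this supply is laid down in the egg.

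Expression is given as FPKM, the number of fragments scaled to exon length and to all mapped fragments, so that levels can be compared between genes. The deposited table holds 1 value per gene and group, in which the authors combined both samples. The spread between samples is therefore unknown, depth is unknown, and no difference below carries an error, a count of samples that show it, or a test. The targeted gene *eomesa* (ENSDARG00000006640) had 1.52 FPKM in MZ*eomesa* embryos, against 62.6 FPKM in wild-type embryos. In whole embryos, fewer cells of a type and less RNA per cell cannot be told apart. Genes were compared when their mean over both groups was at least 1 FPKM, which 14921 genes met, among them 9 of the 10 member rows.

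No member differed by as much as 1.5-fold between MZ*eomesa* and wild-type embryos. Of the 9 rows compared, 5 were higher and 4 lower in MZ*eomesa* embryos, with log2 ratios between -0.41 and 0.50 and a median of 0.09. Among the 5 higher rows, 2 are named *asf1ba*, at 0.26 and 0.09, so this gene counts 2 times in the split and the median. Across all 14921 genes the median was -0.01. At 2-fold, 0 of the 9 rows were higher in MZ*eomesa* embryos, where 5.40% of all genes were, and 0 were lower, where 3.80% of all genes were. At 1.5-fold the count was again 0 in each direction, against 12.2% of all genes on the higher and 10.4% on the lower side. With 9 rows, a count of 0 lies near these shares, and it is not a result particular to these genes. Summed over the members, expression was 824 FPKM in MZ*eomesa* embryos and 802 FPKM in wild-type embryos.

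**Figure D1:**
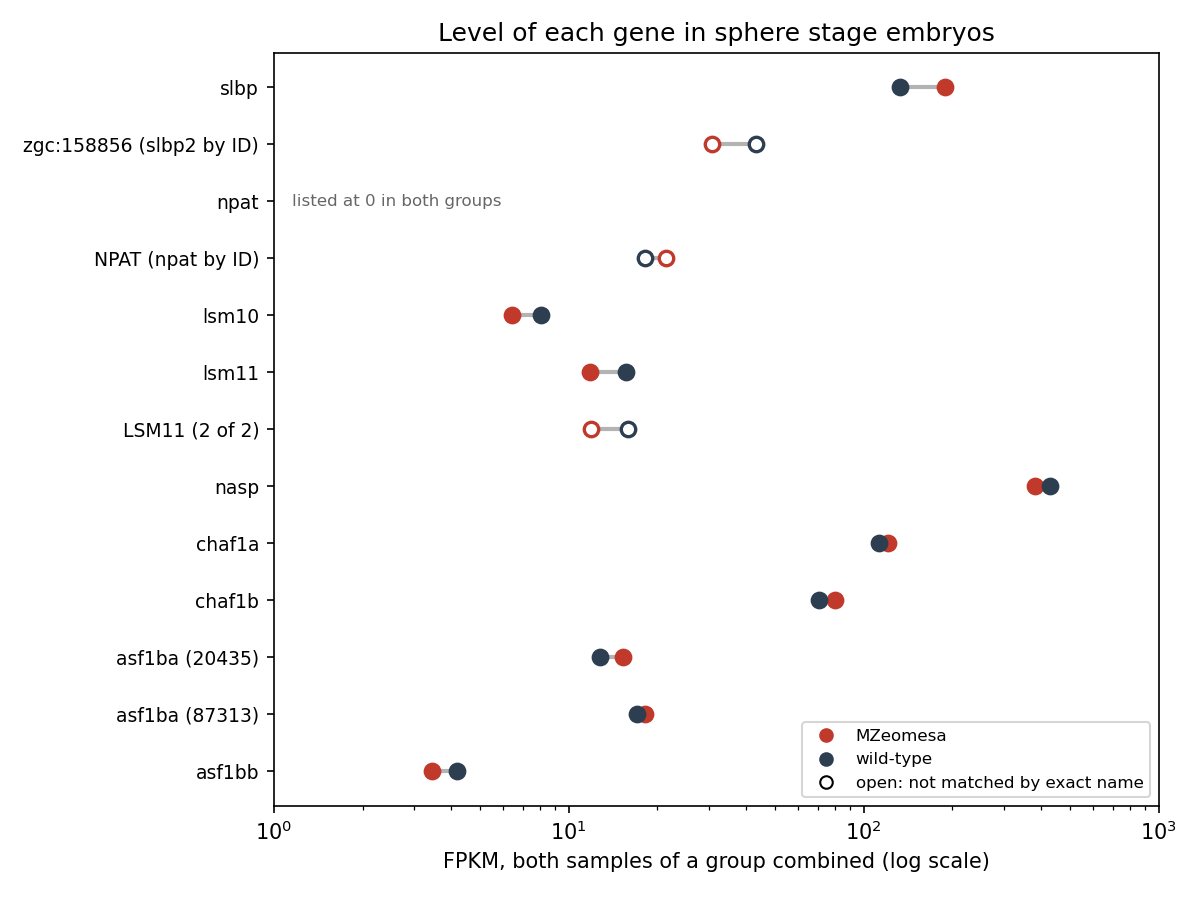
FPKM of each row on a log axis, MZ*eomesa* in red and wild-type in dark blue, with both samples of a group combined in 1 point and no error available. Filled points are rows found by exact name and open points the 3 rows matched by gene ID or by a name in capitals. *nasp* stands highest at 380 and 427 FPKM, *asf1bb* lowest at 3.43 and 4.17 FPKM, and *npat* is listed at 0.

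The histone mRNA factors differed in direction. *slbp* (ENSDARG00000004926, chromosome 14, 18741669 to 18746150) encodes the protein that binds the histone stem-loop and accompanies the message through processing, export and translation. It had 189 FPKM in MZ*eomesa* embryos and 133 FPKM in wild-type embryos, a log2 ratio of 0.50, or 1.41-fold higher. This was the widest log2 ratio among the members, and *slbp* lies in a span of its own. It was already among the abundant transcripts: 2.85% of the genes compared had a higher level in MZ*eomesa* embryos and 4.32% in wild-type embryos. An absolute log2 ratio at least as wide was found for 28.1% of all genes compared. Among the 1019 genes whose mean reached 100 FPKM, which have narrower ratios, 11.8% had an absolute log2 ratio at least as wide. On the higher side alone, 7.65% had a log2 ratio as high or higher. The median of those abundant genes was 0.09, with quartiles of -0.08 and 0.23.

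No row bears the name *slbp2*, which encodes the oocyte form of the protein. The row *zgc:158856* (ENSDARG00000069428, chromosome 21, 29032631 to 29044110) is *slbp2* by its Ensembl identifier and by its RefSeq synonym, and it was added after the values were seen. It had 30.5 FPKM in MZ*eomesa* embryos and 43.1 FPKM in wild-type embryos, a log2 ratio of -0.50. In the mutants *slbp* was thus higher and *zgc:158856* lower, by like ratios. The values do not separate egg RNA from newly made RNA for either gene. An absolute log2 ratio as wide as that of *zgc:158856* was found for 28.3% of all genes. Among the 4169 genes with a mean between 20 and 100 FPKM, 15.6% had one as wide. On the lower side alone, 8.42% had a log2 ratio as low or lower. The level of *slbp* was 6.17 times that of *zgc:158856* in MZ*eomesa* embryos and 3.09 times in wild-type embryos, and both summed to 219 FPKM and 176 FPKM. The listed span of *zgc:158856* also holds *zmat2*, with 167 FPKM in MZ*eomesa* embryos and 129 FPKM in wild-type embryos, so its value is less certain than that of *slbp*. Of all genes compared, 48.9% had a log2 ratio above 0. The share was 46.8% for means between 20 and 100 FPKM and 64% for means that reached 100 FPKM. Of 14 listed messenger RNAs known from the oocyte, 11 were lower and 3 higher in MZ*eomesa* embryos, with a median log2 ratio of -0.25. They include *h1m*, the maternal linker histone, with 731 FPKM in MZ*eomesa* embryos and 861 FPKM in wild-type embryos. Of these 14, *buc*, which organises the germ plasm, had the widest ratio at -1.19, and the other 13 were within 1.5-fold. Whether the lower *zgc:158856* value goes with the amount of egg RNA left was not tested.

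**Figure D2:**
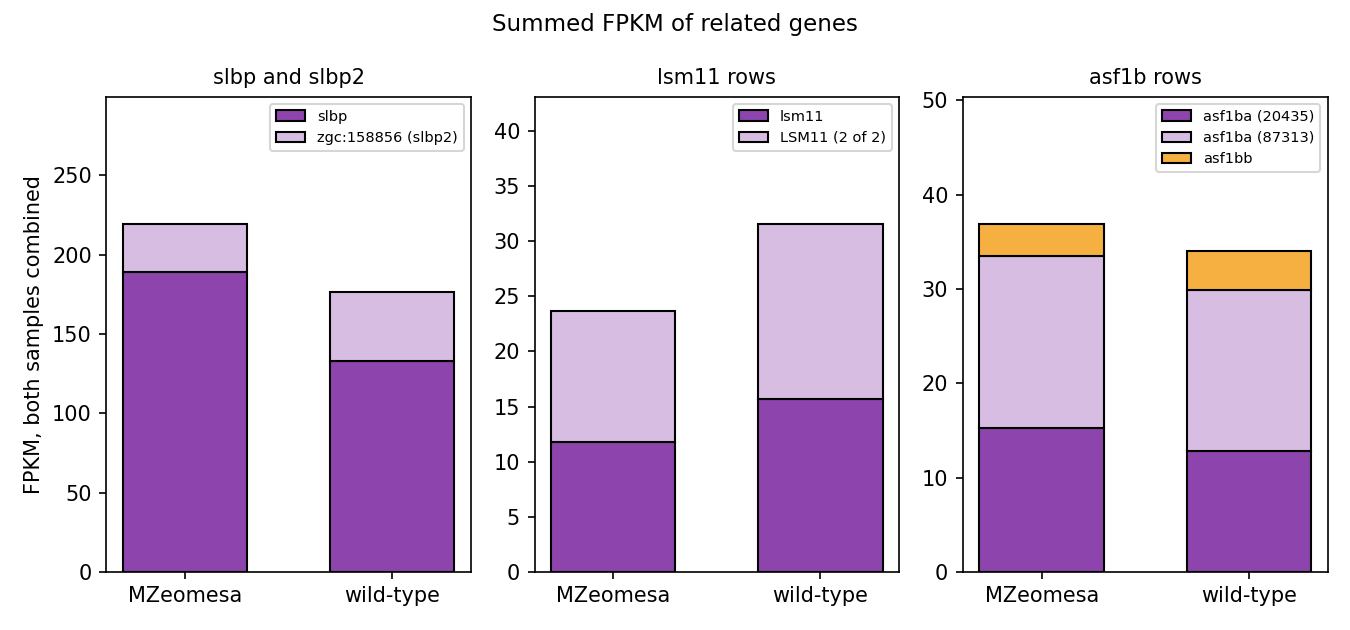
Stacked FPKM of related rows, MZ*eomesa* left of wild-type in each panel, with no error available. The *slbp* part is larger and the *slbp2* part smaller in MZ*eomesa* embryos, the *lsm11* rows differ by about 0.1 FPKM in MZ*eomesa* and 0.2 FPKM in wild-type embryos and sum to 23.6 against 31.5 FPKM, and the *asf1b* rows sum to 36.9 against 34.1 FPKM.

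Lsm10 and Lsm11 are the subunits that set the U7 particle apart from the spliceosomal particles. Both transcripts were modest in level and lower in MZ*eomesa* embryos. *lsm10* (ENSDARG00000094513, chromosome 19, 2908407 to 2942695) had 6.43 FPKM in MZ*eomesa* embryos and 8.08 FPKM in wild-type embryos, a log2 ratio of -0.33. *lsm11* (ENSDARG00000090854, chromosome 14, 36550090 to 36565030) had 11.8 FPKM in MZ*eomesa* embryos and 15.7 FPKM in wild-type embryos, a log2 ratio of -0.41. Absolute ratios this wide were common: 44.2% of all genes reached that of *lsm10* and 35.8% that of *lsm11*. The proportion of *lsm11* to *lsm10* was nearly the same in both groups, at 1.83 in MZ*eomesa* embryos and 1.94 in wild-type embryos. *lsm10* lies 2.05 Mb from *eomesa* on chromosome 19 and shares its listed span with *oscp1a* and another gene, and *lsm11* shares its span with *ZBTB3 (2 of 2)*.

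A second row, *LSM11 (2 of 2)* (ENSDARG00000053025), begins 17 kb beyond *lsm11* on chromosome 14. It had 11.9 FPKM in MZ*eomesa* embryos and 15.9 FPKM in wild-type embryos, a log2 ratio of -0.42, which is almost the value of *lsm11* itself. The authors' estimation divides reads with several matches, and whether these rows share reads was not tested, so they are not counted as separate evidence. Summed, they gave 23.6 FPKM in MZ*eomesa* embryos and 31.5 FPKM in wild-type embryos.

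*npat* (ENSDARG00000094564, chromosome 15, 24859507 to 24873654) is listed at 0 in both groups, so that no ratio can be given. The same span holds a row written *NPAT* (ENSDARG00000055548), the identifier that the reference table pairs with *npat*. It had 21.4 FPKM in MZ*eomesa* embryos and 18.1 FPKM in wild-type embryos, a log2 ratio of 0.24. The 0 of the first row therefore does not mean that *npat* RNA was missing. In both groups the transcript of this activator of histone genes was well below that of *slbp*.

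**Figure D3:**
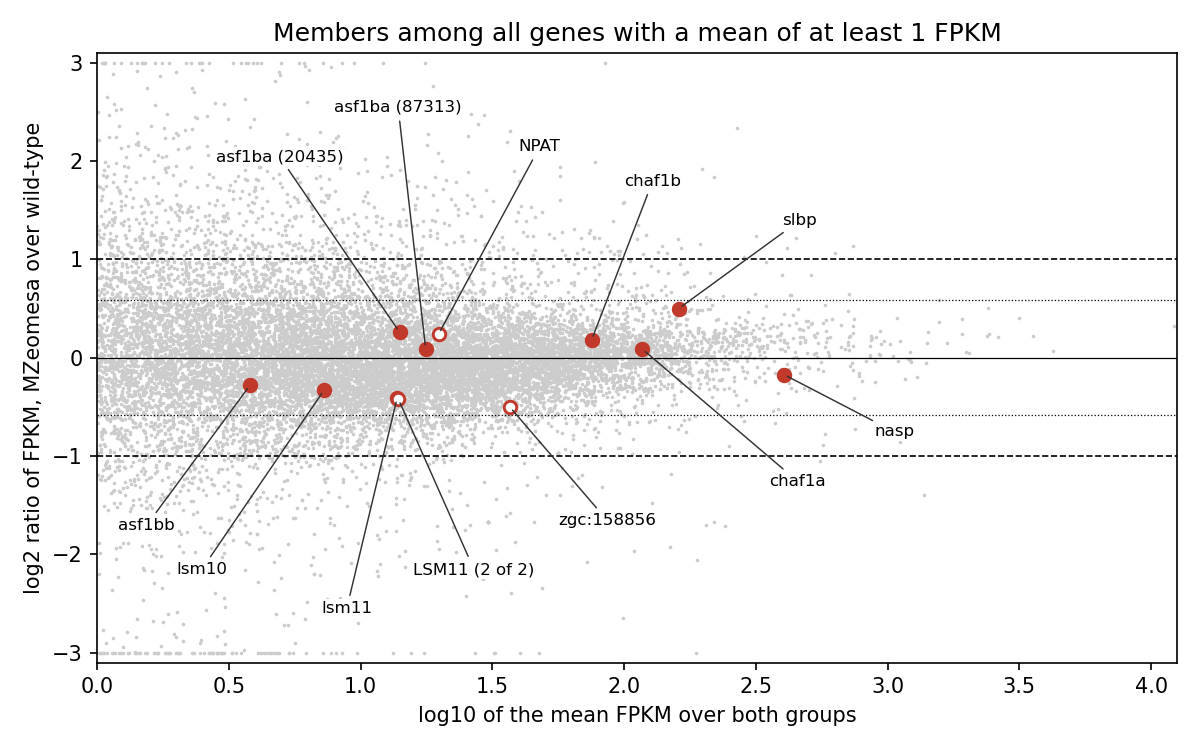
Log2 ratio of FPKM, MZ*eomesa* over wild-type, against the log10 of the mean FPKM, with 1 grey point for each of 14921 genes and red points for the rows described here (filled, exact name; open, other matches). Dashed lines mark 2-fold and dotted lines 1.5-fold, 120 genes beyond an absolute log2 ratio of 3 are drawn at the edge, and every red point lies within the dotted lines, with *slbp* nearest to them among the filled ones.

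The chaperone rows had log2 ratios between -0.28 and 0.26, widths that are common among all genes. The widest was that of *asf1bb*, and 50.4% of all genes compared had an absolute ratio at least as wide. *nasp* (ENSDARG00000039208, chromosome 6, 33596046 to 33614433), which binds and stores H3 and H4, was the most abundant member. It had 380 FPKM in MZ*eomesa* embryos and 427 FPKM in wild-type embryos, a log2 ratio of -0.17. For 68% of all genes compared the absolute log2 ratio was at least as wide. Only 1.11% of the genes compared had a higher level in MZ*eomesa* embryos and 0.858% in wild-type embryos. Its difference of -47 FPKM was nearly as large in FPKM as that of *slbp*, 55.2 FPKM, although its ratio was much narrower. *CCDC17*, in the same listed span, was under 1 FPKM in both groups.

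The genes for the large and middle subunits of chromatin assembly factor 1 were slightly higher in MZ*eomesa* embryos, by ratios common among all genes. An absolute log2 ratio at least as wide was found for 82.4% of all genes for *chaf1a* and for 66.3% for *chaf1b*. *chaf1a* (ENSDARG00000062152, chromosome 22, 22639669 to 22665315) encodes the large subunit, which contacts the replication clamp. It had 121 FPKM in MZ*eomesa* embryos and 113 FPKM in wild-type embryos, a log2 ratio of 0.09. *chaf1b* (ENSDARG00000056473, chromosome 9, 31576422 to 31589033) encodes the middle subunit, with 79.8 FPKM in MZ*eomesa* embryos and 70.6 FPKM in wild-type embryos and a log2 ratio of 0.18. The proportion of *chaf1a* to *chaf1b* was 1.51 in MZ*eomesa* embryos and 1.61 in wild-type embryos. Both genes have a listed span of their own. *rbb4*, which the reference table pairs with the small subunit RBBP4 and which also serves in other chromatin complexes, had 44.8 FPKM in MZ*eomesa* embryos and 33.7 FPKM in wild-type embryos, a log2 ratio of 0.41. The related *rbb4l* had 42.6 FPKM in MZ*eomesa* embryos and 44.9 FPKM in wild-type embryos, a log2 ratio of -0.08. Both were singled out after their values were seen.

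Asf1 receives H3 and H4 and hands them to the assembly factors. The first *asf1ba* row (ENSDARG00000020435, chromosome 3, 50619997 to 50787901) had 15.3 FPKM in MZ*eomesa* embryos and 12.8 FPKM in wild-type embryos, a log2 ratio of 0.26. The second (ENSDARG00000087313, chromosome 3, 50788797 to 50799866) had 18.2 FPKM in MZ*eomesa* embryos and 17.1 FPKM in wild-type embryos, a log2 ratio of 0.09. The spans of both rows are 895 bases apart, and that of the first also holds *prkacaa* and an unnamed gene. *asf1bb* (ENSDARG00000043713, chromosome 1, 56450237 to 56461094), the paralogue, was the lowest member that was detected, with 3.43 FPKM in MZ*eomesa* embryos and 4.17 FPKM in wild-type embryos and a log2 ratio of -0.28. It was the scarcer paralogue in both groups: the *asf1ba* rows together had 9.76 times the level of *asf1bb* in MZ*eomesa* embryos and 7.17 times in wild-type embryos. *nasp* exceeded the 3 *asf1b* rows together 10.3 times in MZ*eomesa* embryos and 12.5 times in wild-type embryos. Whether both *asf1ba* rows are parts of 1 gene or share reads was not tested, so these sums may count 1 transcript level 2 times. Each *asf1ba* row alone also exceeded *asf1bb* in both groups.

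The list of further factors for histone mRNA processing includes the cleavage complex and the Sm proteins shared with the spliceosome. It also holds cell cycle genes such as those of cyclin E. In it, 19 genes were compared and 0 were 2-fold or 1.5-fold higher or lower. At 1.5-fold, 12.2% of all genes were higher and 10.4% lower. Abundant genes have narrower ratios, and the share past 1.5-fold among genes of like level was not taken. The median log2 ratio of the 19 was 0.11, with 17 above 0 and 2 below. Above 0 were 48.9% of all genes and 64% of those whose mean reached 100 FPKM. Several of the 19 had lower means, and the share above 0 was 46.8% for means between 20 and 100 FPKM and 44.5% between 5 and 20 FPKM. The most abundant were *snrpb*, an Sm protein, with 599 FPKM in MZ*eomesa* embryos and 557 FPKM in wild-type embryos, and *ccne1*, the cyclin whose kinase activates Npat in human cells, with 542 FPKM and 538 FPKM. *casp8ap2*, the FLASH protein that joins Lsm11 in the U7 particle, had 60.3 FPKM in MZ*eomesa* embryos and 47.3 FPKM in wild-type embryos, a log2 ratio of 0.35. It was named after its values were seen.

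The list for histone mRNA decay was set by name and also holds genes of RNA turnover that are not particular to histone mRNA. Of the 16 genes compared from it, again 0 were past 1.5-fold, where 12.2% of all genes were higher and 10.4% lower. Here too no share among genes of like level was taken. The median log2 ratio of the 16 was -0.02. The most abundant were *pnrc2*, with 481 FPKM in MZ*eomesa* embryos and 513 FPKM in wild-type embryos, and the exonuclease gene *xrn2*, with 333 FPKM and 335 FPKM in the same order. *eri1*, the exonuclease that trims the histone stem-loop, had 38.2 FPKM in MZ*eomesa* embryos and 44.1 FPKM in wild-type embryos, and it was chosen after its values were seen.

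Of 33 further chaperones and their partners, 32 were compared. At 2-fold 0 were higher or lower. At 1.5-fold 1 was higher and 0 were lower, against 12.2% and 10.4% of all genes, again with no share among genes of like level. The median log2 ratio of the 32 was 0.16, with 23 above 0 and 9 below. Above 0 were 48.9% of all genes and 64% of those whose mean reached 100 FPKM. Many of the 32 had lower means. The share above 0 was 46.8% for means between 20 and 100 FPKM, 44.5% between 5 and 20 FPKM and 52% between 1 and 5 FPKM. The gene past 1.5-fold was *npm1b*, a nucleophosmin paralogue, with 28.6 FPKM in MZ*eomesa* embryos and 18.1 FPKM in wild-type embryos and a log2 ratio of 0.66. It too was named after its values were seen. The most abundant were *ncl*, nucleolin, with 967 FPKM in MZ*eomesa* embryos and 834 FPKM in wild-type embryos, and *anp32b*, an acidic nuclear chaperone, with 686 FPKM and 474 FPKM in the same order. Some genes lay on the other side, chosen here after their values were seen: *ubn2*, a partner of Hira, had a log2 ratio of -0.52, and *tlk2*, a kinase of Asf1, one of -0.51.

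**Figure D4:**
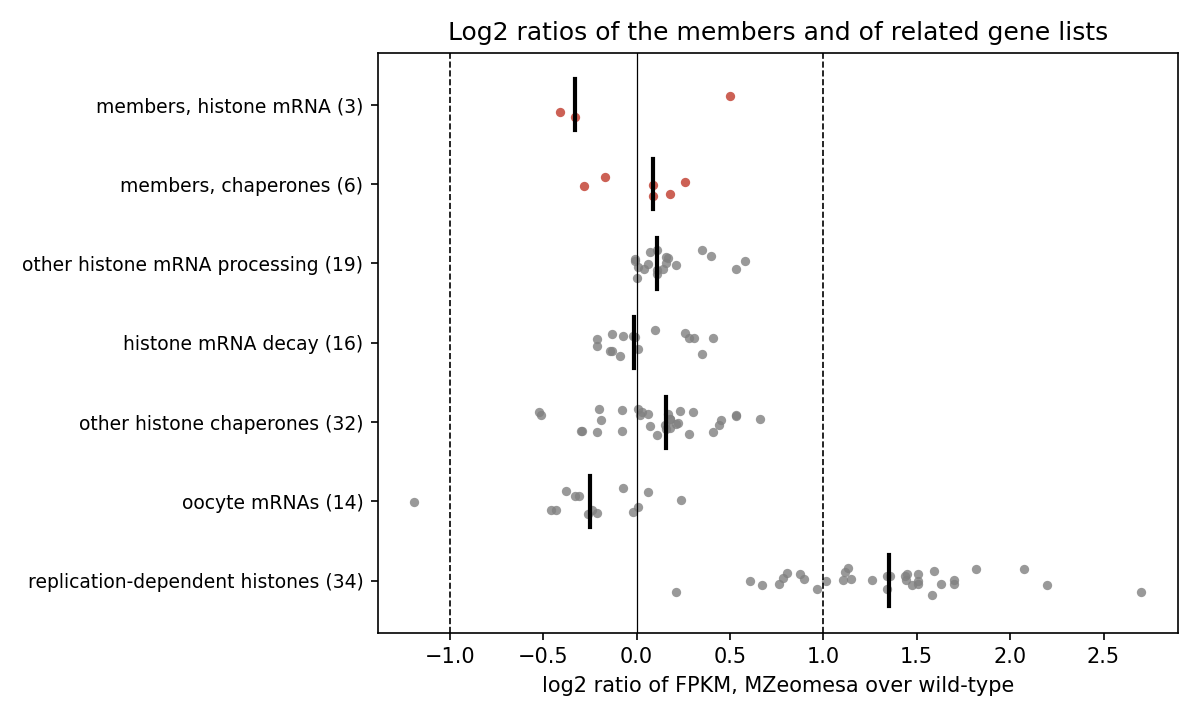
Log2 ratio of FPKM, MZ*eomesa* over wild-type, for single genes (points) and the median of each list (black bars), with the number of genes compared in parentheses and dashed lines at 2-fold. The member points (red) and the related lists of processing, decay and chaperone genes lie inside the dashed lines. Of the 34 histone genes, 25 lie beyond the line on the higher side, where 5.40% of all genes compared do.

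The histone genes themselves differed far more than the factors that serve them. Over the 35 genes named as replication-dependent histones, FPKM summed to 395 FPKM in MZ*eomesa* embryos and 159 FPKM in wild-type embryos. Of the 34 compared, 25 were at least 2-fold higher in MZ*eomesa* embryos, where 5.40% of all genes were. Most of the factors are more abundant than single histone genes, and the share among genes of like level was not taken. Set against *slbp*, the summed histone level was 2.09 times that of *slbp* in MZ*eomesa* embryos and 1.19 times in wild-type embryos. Sequencing began from poly(A) RNA, which holds few of the stem-loop messages, so these ratios concern the captured part only. Reads shared between histone copies were not measured here. None of these 35 genes lies on the chromosome of any member, and histone genes under other names were not checked.

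Marker transcripts of other cell types and of early zygotic expression also differed between the groups. All 3 yolk syncytial layer genes that were compared were at least 2-fold lower in MZ*eomesa* embryos, where 3.80% of all genes were. Of these 3, *hnf4a* reached a mean of 1 FPKM only through its wild-type value. The listed *slc40a1*, *gata6* and *slc26a1* were under 1 FPKM on average, with log2 ratios of 0.29, -0.21 and -4.74. Of 11 enveloping layer genes, 4 were at least 2-fold higher and 1 lower, against 5.40% and 3.80% of all genes. Of the 4, *cyt1* reached a mean of 1 FPKM only through its MZ*eomesa* value. Early zygotic genes went both ways, with 4 at least 2-fold higher and 3 lower among 17, against the same shares of all genes. Of 14 genes of later tissues, 12 were under 1 FPKM on average. The other 2 were higher in MZ*eomesa* embryos. *elavl3*, a neuronal gene, had 3.96 FPKM in MZ*eomesa* embryos and 0.728 FPKM in wild-type embryos. *tnnt2a*, a cardiac gene, had 3.51 FPKM and 1.61 FPKM in the same order. Since *elavl3* reached a mean of 1 FPKM only through its MZ*eomesa* value, its direction followed from the filter. The later-tissue genes under that mean went both ways. The part of these differences in the values of the members was not tested.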

How the data were processed

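Whole sphere stage embryos, 2 MZ*eomesa* and 2 wild-type samples, were profiled by single-read sequencing of poly(A) RNA. According to the study's methods and the submitters' processing notes, the authors mapped reads with TopHat2 (version 2.0.5) to Zv9 and estimated and compared expression with Cufflinks, whose -u option shares out reads with more than one match. The deposited table holds the authors' FPKM as 1 value per gene and group. It has 0 columns of values per sample. Its further columns hold the authors' own comparison (fold change, test statistic, p-value, q-value) and were not used. The annotation release is not given in the sources used here.

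The log2 ratio (MZ*eomesa* over wild-type) was taken without a pseudocount for genes above 0 in both groups with a mean of at least 1 FPKM. Folds of 2 and 1.5 served as thresholds, and no test was possible. Listed spans can hold several genes (21.7% of genes share theirs, and 6 of 10 member rows). The table counts starts from 0, so 1 was added. The members and gene lists were chosen with earlier results of these data known. All members were named, with *eomesa*, and from the lists of other pathway genes those past 2-fold and the 2 most abundant. Any further pathway gene is said to have been chosen later. Genes named from the oocyte and marker lists, and the paired names near *lsm11*, fall outside this rule. The 3 rows not found by exact name were checked by Ensembl identifier, RefSeq synonym (assembly GRCz12tu) or the listed name itself. The reference names held 7 of the 13 identifiers. Functions were tested on simulated data. Python 3.11.15, numpy 2.4.6, pandas 2.3.3 and matplotlib 3.10.9 were used.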

Additional observations from a re-analysis of the deposited data

How the results depend on the processing

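The member counts past 2-fold and 1.5-fold stayed at 0 in each direction under 6 alternatives: no filter, a minimum mean of 5 FPKM, a pseudocount of 0.1 or of 1, ratios centred on the median over all genes, and equal upper quartiles. The members' median log2 ratio ran from 0.08 to 0.13 under them. Of 36 single-member values under another pseudocount or scaling, 0 had the other sign, and the largest move was 0.06 on the log2 scale. With the 3 rows matched by identifier or capitals, added after seeing the data, the median was -0.04 over 12 rows, since *zgc:158856* and *LSM11 (2 of 2)* lie below 0, and the counts stayed at 0. With only the 4 member rows that have a span of their own, also added later, it was 0.13. A move of up to 0.1 was taken as unchanged, as no replicate spread is known. The median with the 3 added rows moved by more than this and changed sign. No paired analysis was possible because the table holds 1 combined value per group, and no replicate could be left out for the same reason. Depth is unknown, so whether ratios of the size of *slbp* exceed counting error could not be judged.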

Other observations

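The *lsm11* region of chromosome 14 holds a run of 4 gene names in pairs. *lsm11*, *ZBTB3 (2 of 2)*, *RNASEH2C (2 of 2)* and *TRMT12 (1 of 2)* each have a second row in the span that begins 17 kb further on. *RNASEH2C (1 of 2)* had 13.7 FPKM in MZ*eomesa* embryos and 15.4 FPKM in wild-type embryos, and *RNASEH2C (2 of 2)* had 12.9 FPKM and 14.2 FPKM in the same order. *TRMT12 (1 of 2)* had 4.06 FPKM in MZ*eomesa* embryos and 5.37 FPKM in wild-type embryos, and *TRMT12 (2 of 2)* had 3.77 FPKM and 5.09 FPKM. The *ZBTB3* rows were less alike, with 5.19 FPKM in MZ*eomesa* embryos and 5.53 FPKM in wild-type embryos for *ZBTB3 (2 of 2)* and 2.27 FPKM and 2.77 FPKM for *ZBTB3 (1 of 2)*. Whether the block is repeated in the genome or only in the assembly was not tested.

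Both *asf1b* paralogues have a paralogue of the protein kinase A catalytic subunit beside them. *prkacaa*, in the span of an *asf1ba* row, had 27.8 FPKM in MZ*eomesa* embryos and 25.7 FPKM in wild-type embryos. *prkacab*, the next gene after *asf1bb*, had 7.24 FPKM in MZ*eomesa* embryos and 8.19 FPKM in wild-type embryos. As with the *asf1b* rows, the copy on chromosome 3 was the more abundant. The log2 ratios were 0.11 for *prkacaa* and -0.18 for *prkacab*. For the *asf1b* rows, 50.4% to 82.2% of all genes had an absolute ratio as wide. No such share was taken for *prkacaa* or *prkacab*. Whether the neighbouring genes vary together was not tested.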
